A study of Mus musculus with 10 samples.

Results

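The genes described here encode the light chains of cytoplasmic dynein, the motor that walks toward the minus ends of microtubules. They were the rows whose Ensembl identifiers map to *Dynlt1a*, *Dynlt1b*, *Dynlt1c*, *Dynlt1f*, *Dynlt3*, *Dynll1*, *Dynll2* and *Dynlrb1*. All 8 were found among the 18444 genes of the table, and all 8 passed the minimum mean of 10 normalised read counts that 17020 genes passed. The group was selected on measured values, since it was proposed because the normalised counts of *Dynlt1b* stood out between genotypes in these same libraries, and so every HT against WT value of a light chain below is a description and carries no test.

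Male C57BL/6N pups at postnatal day 3 (P3) gave whole brains for sequencing of poly-A mRNA. The groups were 5 mice heterozygous for *Arid1b* (HT) and 5 wild-type mice (WT), with 1 library per mouse, untreated as far as the labels say. *Arid1b* encodes a DNA-binding subunit of the BAF chromatin remodelling complex, and the study asked how the loss of 1 allele changes brain transcripts. All HT mice carried the same edited line, C57BL/6N-Arid1b em1Tcp, made with the Cas9 nickase at exon 5. The study describes the edit in its results as an insertion of TT that truncates the protein, and in its methods as a deletion with TT inserted. The edit is in the germline and no Cre or cell type restricts it.

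Dynein light chains are small dimers that sit on the intermediate chains of the motor. They fall into the Tctex1 type (*Dynlt1* copies and *Dynlt3*), the LC8 type (*Dynll1* and *Dynll2*) and the roadblock type (*Dynlrb1*). In neurons the motor carries endosomes, autophagosomes and signalling cargo from axon terminals back to the cell body, and it moves nuclei in migrating cells. LC8 is also a hub that binds many proteins outside the motor, and *Dynlt1* has reported roles in neurite growth apart from dynein. The mouse genome holds several near-identical *Dynlt1* genes in 1 cluster, so reads of these genes are hard to assign.

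The sequence shows how little separates the *Dynlt1* copies. On GRCm38 with GENCODE M21, *Dynlt1a* (ENSMUSG00000092074) lies on chromosome 17 from 6306340 to 6317500 on the minus strand and *Dynlt1b* (ENSMUSG00000096255) from 6430112 to 6436296 on the plus strand. *Dynlt1c* (ENSMUSG00000000579) lies from 6601671 to 6609774 on the plus strand and *Dynlt1f* (ENSMUSG00000095677) from 6646602 to 6655900 on the minus strand. All 4 coding sequences are 339 bases long. Those of *Dynlt1a*, *Dynlt1c* and *Dynlt1f* are identical, and *Dynlt1b* differs from *Dynlt1c* and *Dynlt1f* by A21C and *Dynlt1a* from *Dynlt1b* by C21A, counted from 1 at the A of the start codon. The base is the last of codon 7, lies in coding exon 1 and leaves the residue the same. Coding bases 6 to 35 are printed because they hold this base, which is in capitals. The stretch crosses the junction of exons 1 and 2, so its genome span holds an intron.
Dynlt1a, minus strand, chr17:6314951-6317395: agacttccaggcctcCgaggagactgcatt
Dynlt1b, plus strand, chr17:6430217-6431887: agacttccaggcctcAgaggagactgcatt
Dynlt1c, plus strand, chr17:6601815-6603494: agacttccaggcctcCgaggagactgcatt
Dynlt1f, minus strand, chr17:6653345-6655795: agacttccaggcctcCgaggagactgcatt

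Outside the coding sequence the copies differ more. The *Dynlt1b* and coding *Dynlt1f* transcripts are 771 bases each and differ at 7 bases, of which 4 are in the 5′ UTR, 1 is coding and 2 are in the 3′ UTR. Of the 741 distinct words of 31 bases in the *Dynlt1b* transcript, 644 (86.9%) occur in another gene and 97 are its own. Of these 97, 31 lie around coding base 21, 66 lie in the 5′ UTR or across its border, and 0 lie elsewhere. The shared portion was 71.0% for *Dynlt1a*, 86.5% for *Dynlt1c* and 92.7% for *Dynlt1f*. A read from *Dynlt1b* that covers neither its 5′ UTR nor coding base 21 therefore matches at least 1 other gene over every such word. Words were compared in the direction of the transcript only. Sequence shared with a gene on the opposite strand was not counted.

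Compared in that same direction, the other light chains are distinct at this word length. *Dynlt3* (ENSMUSG00000031176; chromosome X, 9654267 to 9663003, minus strand) has 62.2% coding identity to *Dynlt1b* and shares 0 words with any gene. *Dynll2* (ENSMUSG00000020483; chromosome 11, 87979525 to 87987533, minus strand) and *Dynlrb1* (ENSMUSG00000047459; chromosome 2, 155236533 to 155250277, plus strand) also share 0. *Dynll1* (ENSMUSG00000009013; chromosome 5, 115297110 to 115300999, minus strand) shares 7.17% of its words, and none of these with *Dynll2*. The LC8 genes have coding sequences of 267 bases with 81.3% identity, and their longest common run is 16 bases. Their first 30 coding bases are printed to set this against the *Dynlt1* copies, with the 5 differing bases in capitals.
Dynll1, minus strand, chr5:115300615-115300644: atgtGCgaccggaaggcGgtgatcaaAaaT
Dynll2, minus strand, chr11:87983974-87984003: atgtCTgaccggaaggcAgtgatcaaGaaC

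Library totals ran from 27243506 to 29032442 normalised counts. The targeted gene checked the labels: *Arid1b* ran from 1505 to 2372 normalised counts in HT (2101 ± 343, SD, n = 5) and from 3108 to 3597 in WT (3335 ± 203, SD, n = 5), 63.0% of the WT mean. Its log2 fold change was -0.68 ± 0.11 (SE), with a limma adjusted p of 0.390 that ran from 4.08e-07 to 1.00 over the alternatives, of which leaving out HT4 gave 2.47e-04. The library HT4 stood apart from the others. Its log2 values had a median absolute deviation of 0.200 from the group means, where the others had 0.0721 to 0.114, and its short transcripts were high. The trend on transcript length was 0.25 (log2) in HT4 at the length of *Dynlt1b* and between -0.10 and 0.051 in the other libraries. All listed markers of neurons, astrocytes, the oligodendrocyte lineage, microglia, endothelium, ependyma and blood passed the minimum mean of 10 normalised read counts.

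Over all 17020 genes, limma called 0 between HT and WT at an adjusted p under 0.05 (0%), and 580 (3.41%) had an unadjusted p under 0.05, of which 251 (1.47%) were higher and 329 (1.93%) lower in HT. Of the 8 light chains, 5 had higher and 3 lower means of log2 values in HT, and their median log2 fold change was 0.035 against -0.0074 over all genes. *Dynlt1b* was the 1 light chain whose groups did not overlap, a pattern found in 107 genes (0.629%), of which 48 (0.282%) had every HT library above every WT library and 59 (0.347%) every HT library below. Since *Dynlt1b* was picked for this contrast, nothing is read from that count.

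*Dynlt1b* had 4277, 4304, 3824, 4677 and 3912 normalised counts in HT1 to HT5 and 3135, 3363, 3013, 2550 and 3336 in WT1 to WT5. The lowest HT library, HT3, was above the highest WT library, WT2. The means were 4199 ± 342 (SD) in HT against 3079 ± 329 (SD) in WT, n = 5 each, 136% of WT, and the log2 fold change was 0.45 ± 0.080 (SE). Without HT4 it was 0.41, and with the length trend removed as well it was 0.44. A log2 fold change of this size or more was seen in 259 of 17020 genes (1.52%). In a bulk brain library, a change in the number of cells that express a gene and a change in RNA per cell cannot be told apart.

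The other *Dynlt1* copies overlapped between genotypes. *Dynlt1a* had normalised counts of 1052, 1028, 1076, 1029 and 1201 in the HT libraries and 982, 1057, 1039, 1005 and 1019 in the WT libraries, with a log2 fold change of 0.076 ± 0.056 (SE). HT5 was the highest library, and without it the difference was 0.036. *Dynlt1f* had 933, 771, 1068, 1180 and 937 in HT and 1060, 1053, 885, 943 and 1023 in WT (log2 fold change -0.033 ± 0.10, SE), and both of its extremes were HT libraries. *Dynlt1c*, the copy with the fewest reads, had 434, 366, 334, 248 and 359 in HT and 468, 307, 237, 383 and 368 in WT, a log2 fold change of -0.0039 ± 0.18 (SE). It was also the most variable light chain, with a coefficient of variation of 24.5% in WT and 19.3% in HT. The 3′ end of *Dynlt1a* overlaps the neighbouring *Tmem181a* on the other strand, and the sources used here do not say that the counting used strand, so reads in that overlap cannot be told apart.

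**Figure D1:**
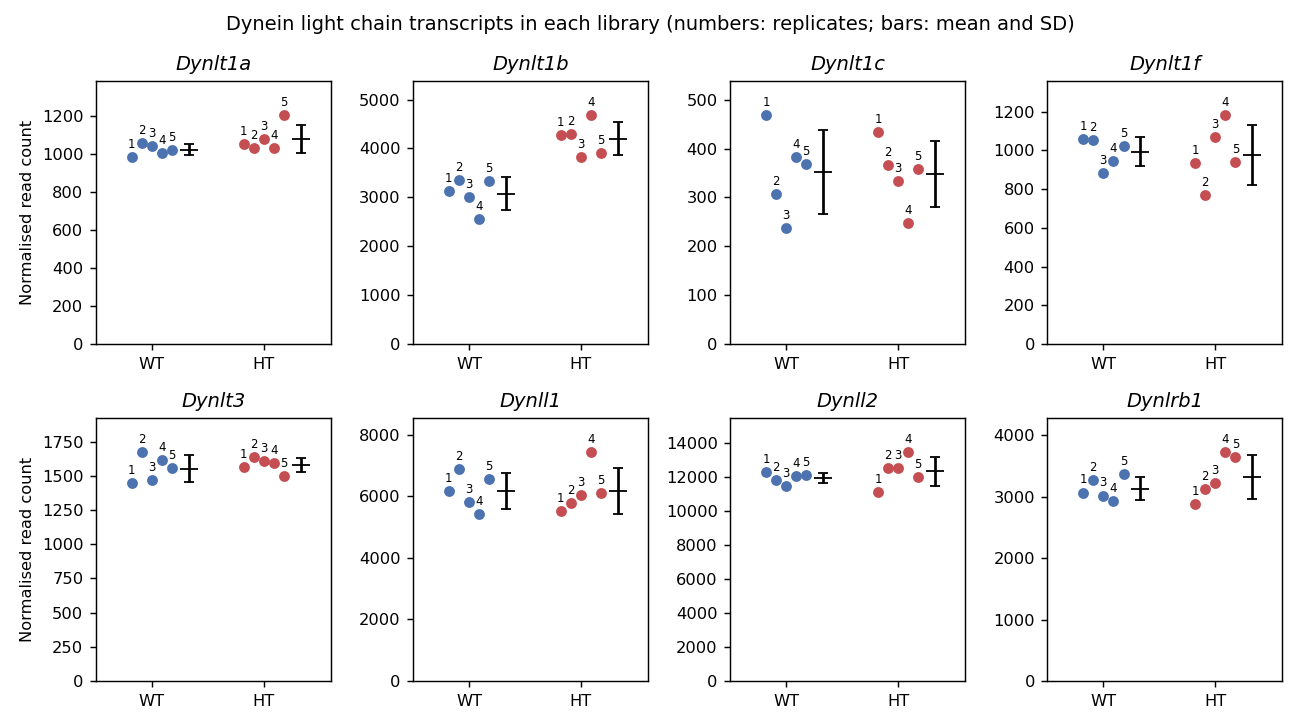
Normalised read counts (linear y axes from 0) of the 8 light chains in each library, with WT in blue, HT in red, the replicate number above each point and the mean with SD beside each group. Only in the *Dynlt1b* panel do the groups not overlap, with HT at 3824 to 4677 and WT at 2550 to 3363.

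Because the quantifier divides shared reads between the copies, the 4 copies were also summed in each library. The sums were 6696, 6469, 6303, 7134 and 6410 normalised counts in HT and 5645, 5779, 5174, 4881 and 5746 in WT. Every HT sum was above every WT sum, with means of 6602 ± 330 and 5445 ± 398 (SD, n = 5 each). The HT mean was 121% of WT, with a log2 fold change of 0.28 ± 0.058 (SE). The sum without *Dynlt1b* was 2419, 2165, 2478, 2458 and 2497 in HT and 2510, 2417, 2161, 2331 and 2410 in WT. These sums overlapped, with means of 2403 ± 136 and 2366 ± 131 (SD, n = 5 each) and a log2 fold change of 0.023 ± 0.053 (SE). The mean difference of the 4 copies together was 1157 normalised counts, and that of *Dynlt1b* alone was 1120.

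The share of the sum assigned to *Dynlt1b* was higher in HT, and the mean shares of the other 3 copies were lower. *Dynlt1b* took 63.9%, 66.5%, 60.7%, 65.6% and 61.0% of the sum in HT and 55.5%, 58.2%, 58.2%, 52.2% and 58.1% in WT. These shares did not overlap, with means of 63.5% ± 2.63 and 56.5% ± 2.61 (SD, n = 5 each). *Dynlt1f* took 11.9% to 16.9% in HT and 17.1% to 19.3% in WT, also without overlap. The shares of *Dynlt1a* (means 16.4% and 18.8%) and *Dynlt1c* (means 5.30% and 6.48%) overlapped. Because shares add up to the whole, a larger share of *Dynlt1b* lowers the others without any change in their own counts, and the counts of *Dynlt1f* overlapped. The precision of any split rests on the words that not all copies share. Words found in no other gene numbered 97 for *Dynlt1b*, 267 for *Dynlt1f*, 514 for *Dynlt1c* and 1253 for *Dynlt1a*. The processed pseudogene *Dynlt1-ps1* on chromosome 6 holds 39.3% of the *Dynlt1b* words. It had 61.2 normalised counts in WT1 and 30.1 in WT5 and was listed at 0 in the other 8 libraries.

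**Figure D2:**
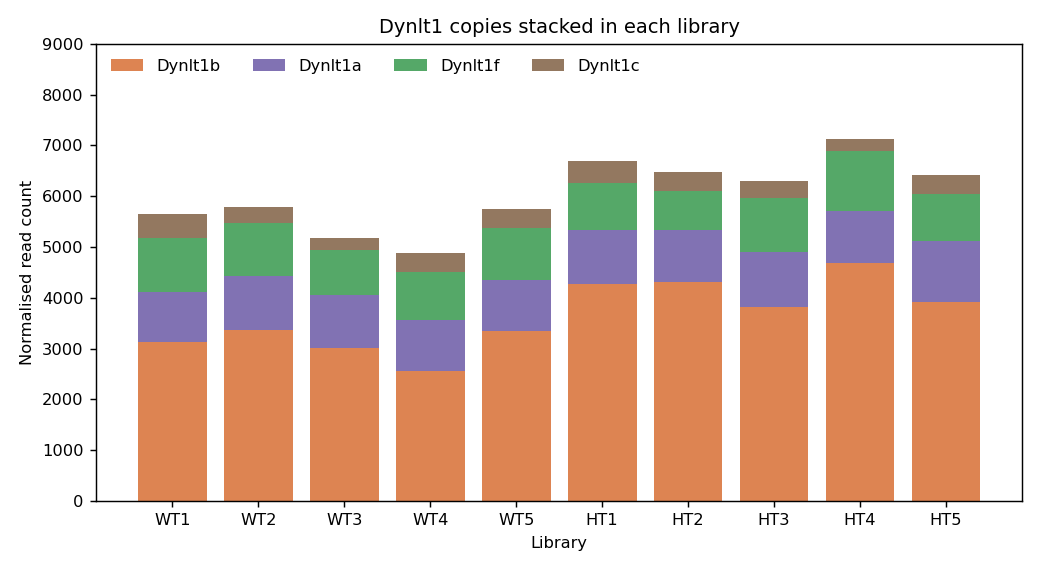
Normalised read counts of the *Dynlt1* copies stacked in each library, with the library on the x axis and 1 colour per copy. The stacks reach 4881 to 5779 in WT and 6303 to 7134 in HT, and the *Dynlt1b* block at the base holds most of the difference.

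The other Tctex1 gene, *Dynlt3*, was the light chain with the least spread in HT. It had normalised counts of 1567, 1638, 1606, 1590 and 1498 in the HT libraries and 1444, 1673, 1471, 1618 and 1556 in the WT libraries, and the lowest and highest libraries were both WT. Its log2 fold change was 0.027 ± 0.054 (SE), a difference smaller than its error.

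The LC8 genes also overlapped between genotypes. *Dynll1* had normalised counts of 5511, 5792, 6041, 7443 and 6113 in the HT libraries and 6180, 6896, 5804, 5442 and 6574 in the WT libraries. The means were 6180 ± 744 and 6179 ± 582 (SD, n = 5 each), and the log2 fold change was -0.0026 ± 0.084 (SE). HT4 was the highest of all libraries, and without it the log2 fold change was -0.072. *Dynll2*, the paralog that is known to join the myosin V motor as well, had 11090, 12533, 12522, 13470 and 12023 in HT and 12314, 11818, 11477, 12037 and 12095 in WT. HT held both its lowest and its highest library, and the log2 fold change was 0.043 ± 0.052 (SE).

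*Dynlrb1*, the roadblock-type light chain, had normalised counts of 2888, 3124, 3221, 3727 and 3643 in the HT libraries and 3068, 3271, 3019, 2924 and 3374 in the WT libraries. HT4 and HT5 were above every WT library, while HT1 was below all of them. The means were 3321 ± 355 and 3131 ± 186 (SD, n = 5 each), and the log2 fold change was 0.080 ± 0.073 (SE), which was 0.037 without HT4. The length trend of HT4 was 0.26 (log2) at the length of *Dynlrb1* and 0.13 at that of *Dynll1*, and with the length trend removed the log2 fold changes were 0.053 for *Dynlrb1* and -0.011 for *Dynll1*. With HT4 left out as well they were 0.071 and -0.049.

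**Figure D3:**
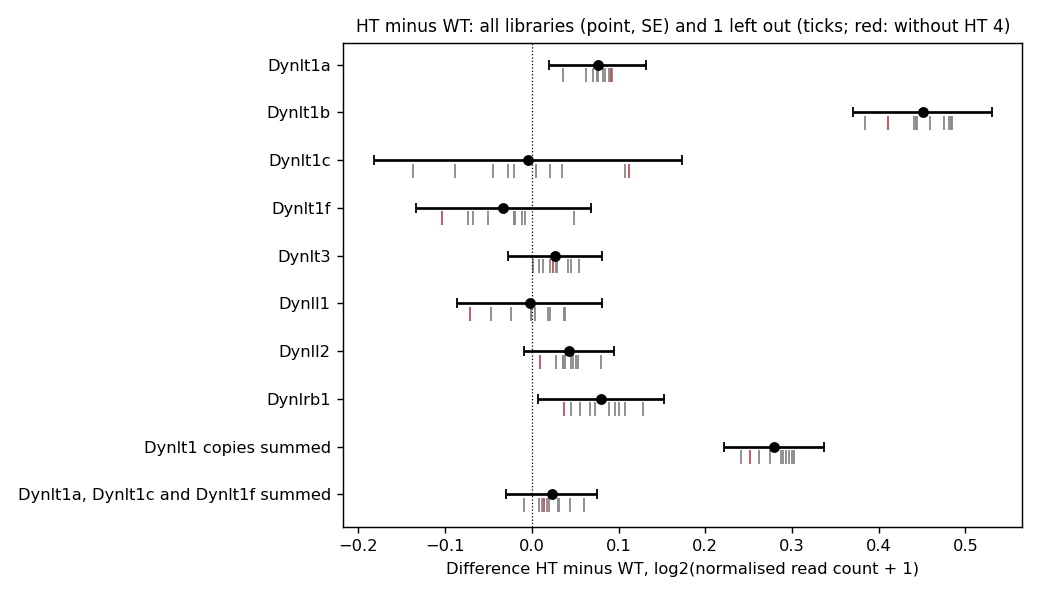
Difference between HT and WT (x axis, log2 of normalised read count plus 1) for each light chain and for 2 sums of *Dynlt1* copies, as points with SE, and the same value with 1 library left out as ticks, red for HT4. The ticks of *Dynlt1b* lie between 0.38 and 0.48 and those of the 4 summed copies between 0.24 and 0.30, while those of *Dynlt1c* lie on both sides of 0.

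Levels were compared between genes as normalised counts per kb of the mean coding transcript. In WT the *Dynlt1* copies together had 5933 ± 501 per kb, *Dynll2* 5044 ± 134, *Dynll1* 4479 ± 422, *Dynlrb1* 4255 ± 253 and *Dynlt1b* 3994 ± 427 (SD, n = 5 each). Each of these overlapped its next neighbour in the order across WT libraries. A second tier lay below them without overlap between neighbours, with *Dynlt1f* at 1288 ± 98.9, *Dynlt3* at 713 ± 44.3, *Dynlt1a* at 515 ± 14.8 and *Dynlt1c* at 136 ± 33.3 per kb (SD, n = 5 each). In HT the level of *Dynlt1b* was 5446 ± 444 per kb (SD, n = 5), between the copies together and *Dynll2* at 5204 ± 366 (SD, n = 5). The order depends on which transcript gives the length. By the longest transcript of each gene, the WT level of *Dynll1* was 2756 and that of *Dynlt1f* 280 per kb, and *Dynll2*, at 4826, came before the *Dynlt1* copies together, at 4671.

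Within groups, the light chains did not all vary together over the 10 libraries. After each group was centred on its mean, the highest Pearson correlation among all pairs was 0.84, between *Dynll1* and *Dynlrb1*, and the lowest was -0.46, between *Dynlt1c* and *Dynll1*. *Dynlt1b* followed *Dynll1* at 0.72, *Dynlt3* at 0.063 and *Dynlt1a* at -0.24. These are descriptions over 10 libraries in which genes of like transcript length share the trend of HT4.

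Among 12826 genes with a mean of at least 100, those whose centred values were most like *Dynlt1b* were *Trp53rka* (r = 0.94), *Kin* (0.936) and the COPII coat gene *Sec13* (0.928). For *Dynlt3* they were *Ttc30b* (0.939), *Ppm1d* (0.912) and *Crnkl1* (0.899). For *Dynll1* they were *Cib2* (0.977), *Sh3bgrl3* (0.974) and the copper chaperone gene *Atox1* (0.974). For *Dynll2* they were *Ppil1* (0.961), *Haghl* (0.957) and *Tsr3* (0.955). For *Dynlrb1* they were *Ypel3* (0.989), *Actb*, which encodes beta-actin (0.976), and *Basp1* (0.974). No light chain was among them. These genes were the highest of 12826 candidates over only 10 libraries, where high correlations can arise by chance, and they were not tested. The matches of *Dynll1* and *Dynlrb1* include genes with short transcripts, which were high in HT4. How much of their likeness came from that length trend was not tested.

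The genes around the *Dynlt1* cluster were examined because *Arid1b* lies on the same chromosome, and *Dynlt1b* starts 1082 kb beyond its end. Of 17 listed neighbours 15 were tested, and 0 had a limma adjusted p under 0.05, while 2 had an unadjusted p under 0.05 (3.41% over all genes). Without HT4 there were 5 such neighbours and 1426 such genes over all. Of the 15, 11 were higher and 4 lower in HT, and the median log2 fold change was 0.039. The 2 were *Arid1b* itself, lower in HT, and the transcribed pseudogene *Tmem181b-ps* (ENSMUSG00000096780; chromosome 17, 6438524 to 6467022, minus strand), which lies next to *Dynlt1b*.

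*Tmem181b-ps* had normalised counts of 6787, 6537, 5693, 4258 and 5725 in the HT libraries and 4437, 4091, 4699, 3188 and 4162 in the WT libraries. All HT libraries but HT4 were above every WT library. The log2 fold change was 0.49 ± 0.13 (SE; limma unadjusted p 0.00222, adjusted p 1.00). Its paralog *Tmem181a*, next to *Dynlt1a*, had 4766 ± 331 (SD) in HT against 4412 ± 124 (SD) in WT, n = 5 each (log2 fold change 0.11, limma adjusted p 1.00), and *Tmem181c-ps*, between *Dynlt1c* and *Dynlt1f*, had a log2 fold change of 0.24 (limma adjusted p 1.00). Words shared among the *Tmem181* copies were not counted, so how surely reads were assigned to each of them is not known. The 7 listed genes from *Arid1b* to *Tmem181a* lay on both sides of 0, from -0.093 for *Serac1* and -0.084 for *Tulp4* to 0.11 for the palmitoyltransferase gene *Zdhhc14* and 0.13 for the phosphatase gene *Synj2*, each with a limma adjusted p of 1.00. All HT mice descend from 1 edited line, so a difference that came with the edited chromosome and one that follows from lower *Arid1b* cannot be told apart.

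**Figure D4:**
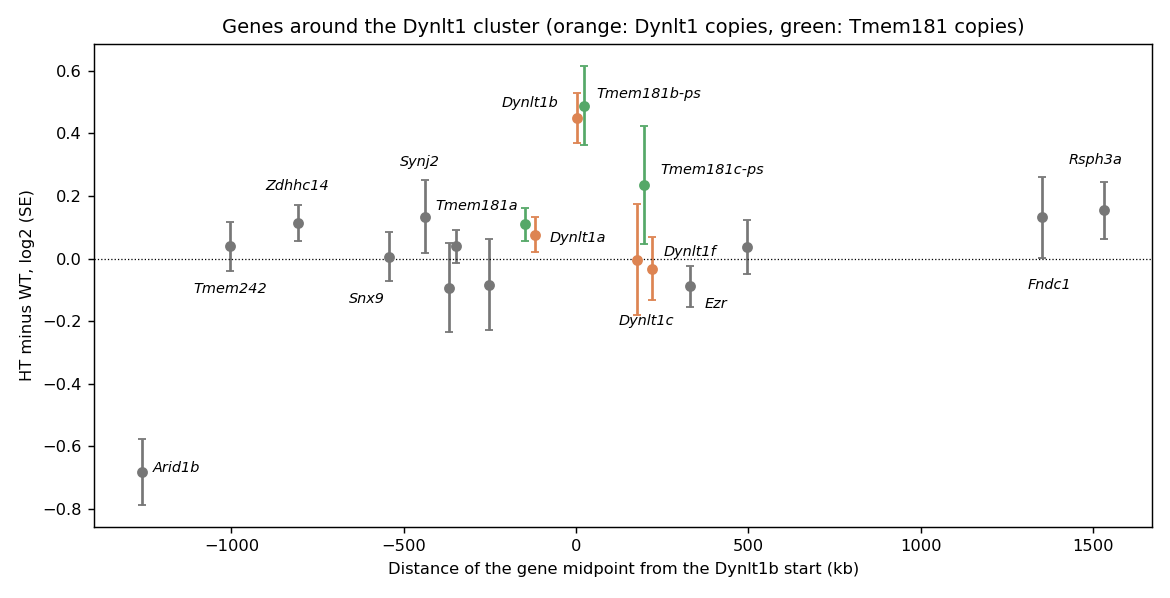
Difference between HT and WT (y axis, log2, with SE) of tested genes against the distance of the gene midpoint from the *Dynlt1b* start (x axis, kb), with *Dynlt1* copies in orange, *Tmem181* copies in green and other genes in grey. *Dynlt1b* at 0.45 and the adjacent *Tmem181b-ps* at 0.49 lie above the rest, and *Arid1b* at -0.68 lies below.

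In the other parts of the dynein pathway few genes had an unadjusted p under 0.05. The same test did not call the edited gene *Arid1b* with all libraries (limma adjusted p 0.390). A count of 0 therefore cannot show that the listed genes did not differ. In each of the lists that follow, limma called 0 genes at an adjusted p under 0.05, every adjusted p was 1.00, and the count with an unadjusted p under 0.05 was 0 unless given. The other light chain relatives, which serve dynein-2 or cilia, had 2 of 6 tested genes higher and 4 lower in HT (median log2 fold change -0.043). The lowest p values were those of *Tctex1d2*, a dynein-2 light chain (0.11), the scarce *Tctex1d4* (-0.55, with group means of 10.2 in HT and 14.5 in WT) and *Dnal1*, an axonemal light chain (-0.052).

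The heavy, intermediate and light intermediate chains of dynein 1 and 2 had 5 of 9 genes higher and 4 lower, with a median log2 fold change of 0.0055 that ran from -0.022 (without HT2) to 0.027 (without HT4). *Dync1h1*, the heavy chain that holds the motor domain, had 25605 ± 1271 normalised counts (SD) in HT against 24517 ± 1875 (SD) in WT, n = 5 each, a log2 fold change of 0.065. The dynein-2 genes *Dync2li1* and *Dync2h1*, which act in cilia, had log2 fold changes of -0.067 and -0.11. Dynactin, the complex that activates dynein, had 3 of 12 genes higher and 9 lower, with a median of -0.0097 (-0.030 without HT4). Its smallest p values belonged to *Actr10* at the pointed end (-0.059), the capping subunit *Capza2* (-0.037) and the filament subunit *Actr1b* (-0.035).

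Dynein regulators and adaptors had 10 of 19 genes higher and 9 lower, with a median of 0.00044, and 1 gene had an unadjusted p under 0.05. Without HT4 the median was 0.060 and 6 genes had such a p, while such genes over all rose from 580 to 1426. Without HT3, WT2, WT3 or WT4 there were 0 such genes in this list. With all libraries the 1 gene was *Hap1*, which encodes the huntingtin-associated protein that binds dynactin. It had 10108 ± 1327 normalised counts (SD) in HT against 8904 ± 331 (SD) in WT, n = 5 each (log2 fold change 0.17, limma unadjusted p 0.0363, adjusted p 1.00). *Spdl1*, the kinetochore adaptor Spindly, had a log2 fold change of -0.33 and *Clip1*, a protein of microtubule plus ends, of 0.098. Binding partners of the light chains had 1 of 12 genes higher and 11 lower, with a median of -0.047. Without HT4 this median turned to 0.014 and 2 genes had an unadjusted p under 0.05, against the same 1426 over all. The list included the kinase gene *Nek9* (-0.084), the gephyrin gene *Gphn* of inhibitory synapses (-0.072) and the cell death gene *Bmf*, whose product is held by LC8 (-0.17). The kinesin list, most of whose genes encode motors that move the other way along microtubules, had 6 of 14 genes higher and 8 lower. Its median was -0.018, and the smallest p values were those of *Kif21a* (-0.096), *Klc2* (-0.069) and *Kif3b* (-0.045). Without HT4 the kinesin median turned to 0.043 and 3 genes had an unadjusted p under 0.05, again against 1426 over all. Without HT5 there was 1 such kinesin gene, and no count over all genes is given for that setting.

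**Figure D5:**
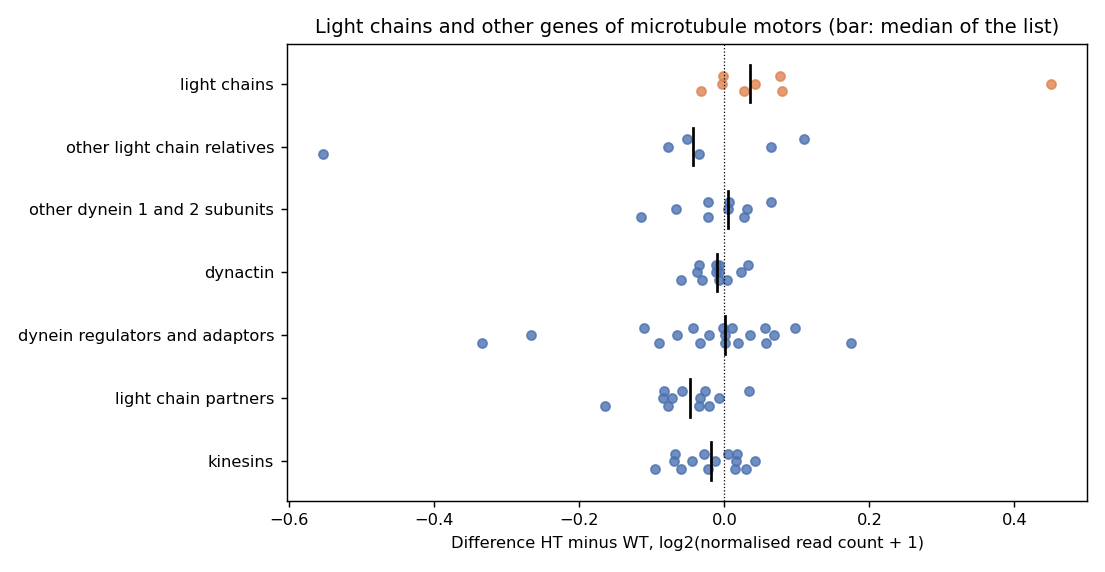
Difference between HT and WT (x axis, log2 of normalised read count plus 1) of each gene, with 1 row per gene list and a bar at the list's median. The list medians lie between -0.047 and 0.035, and *Dynlt1b*, at 0.45, is the point farthest to the right.

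Cell type markers were set beside these values. Neuron markers had 5 of 8 genes higher and 3 lower in HT, with summed levels of 199707 to 216450 normalised counts in HT and 200082 to 207586 in WT. Ependymal and motile cilia markers had 7 of 13 higher and 6 lower, with sums of 2908 to 3354 in HT and 3164 to 3590 in WT. Astrocyte and radial glia markers had 4 of 7 higher, the oligodendrocyte lineage 5 of 7 and endothelium 2 of 5. All 7 microglia markers were lower in HT (median log2 fold change -0.21, sums 1122 to 1693 in HT and 1242 to 2231 in WT). All 6 erythroid markers were higher (median 0.48, sums 5957 to 13723 in HT and 4523 to 13875 in WT). Across these lists 0 markers had a limma adjusted or unadjusted p under 0.05, the summed levels of both latter lists overlapped between groups, and their part in the light chain values was not tested.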

How the data were processed

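Per the study's methods and the submitters' processing notes, the authors estimated transcript abundance with Salmon 1.1.0 on GRCm38 with a correction for GC bias. The authors imported gene values with tximport and divided them by DESeq2 1.30.1 size factors. The annotation release is not given in the sources used here. The deposited table holds a signal value per gene and mouse, a normalised read count. Of its 18444 genes, 18431 matched GENCODE M21. The minimum mean in the table was 3.44. Only 0.195% to 0.374% of values were whole. From 11.1% to 41.9% of values under 6 were whole multiples (tolerance 0.02) of the value of 1 read, so whole reads were not recovered and count tests were not run. Dividing each library total by that value gave a rough depth of 25023852 to 31135712 reads per library. The depth is not established, since that value left most values under 6 unexplained. Near-identical copies share reads, which Salmon divides by a model, so the split between *Dynlt1* copies is an estimate.

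Groups and replicate numbers came from the sample titles. There were 0 other columns of per-sample values. Values were tested as log2(value + 1) with limma 3.58.1 (limma-trend, robust, two-sided, Benjamini-Hochberg adjustment) in R 4.3.3, for 17020 genes with a mean of at least 10. Fold changes on this scale understate those of low genes. This replaced the count test of the study. The SE of summed copies came from a linear model of the 2 groups. Scripts were tested on simulated data. Words of 31 bases, the Salmon default, were compared on the transcript strand only, over all GENCODE M21 transcripts, which also gave the printed sequences.

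Named genes were every light chain, *Arid1b*, the 3 genes with the smallest p in each pathway list, neighbours of the *Dynlt1* cluster with an unadjusted p under 0.05, and the 3 genes most like 5 of the light chains. *Tmem181a*, *Tmem181c-ps*, *Serac1*, *Tulp4*, *Zdhhc14*, *Synj2* and *Dynlt1-ps1* were added after their values were seen. The light chains and lists were chosen with earlier results of these data known. The alternatives were other pseudocounts, filters, scaling, sample weights, a length correction, a replicate block and leaving out each library. Correlations between same-numbered libraries were small (-0.10 to 0.093), though 4 of 5 HT libraries correlated best with the WT library of their number. The sample titles name no pairs, so the numbers were not treated as pairs in the main fit. Whether they mark a shared batch was not tested.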

Additional observations from a re-analysis of the deposited data

Results flagged for a closer look

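Among 70 groups of 5 libraries checked for 1 library far from the other 4, 6 met the limit, and chance alone gives about 1 in 20, or 3.5. The value given for each is the gap to the nearest library divided by the whole range of the group. *Dynlt1a* in HT had HT5 as its highest library, at 1201 normalised counts (gap 0.721). The summed counts of *Dynlt1a*, *Dynlt1c* and *Dynlt1f* in HT had HT2 as the lowest, at 2165 (0.763). *Arid1b* in HT had HT4 as the lowest, at 1505 (0.735). *Dnal1*, an axonemal dynein light chain gene, had HT4 as the lowest in HT, at 1800 (0.839). *Spdl1*, which encodes the dynein adaptor Spindly, had HT4 as the highest in HT, at 88.8 (0.762). *Tctex1d2*, a dynein-2 light chain gene, had WT5 as the highest in WT, at 299.6 (0.748). *Dynlt1b* met the limit in neither group.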

How the results depend on the processing

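Over 19 alternatives, *Dynlt1b* stayed higher in HT, with a log2 fold change of 0.38 (without WT4) to 0.48 (without WT2), and the 4 summed copies did so with 0.24 to 0.30 (without the same libraries). Every HT library was above every WT library for both, the pattern for which *Dynlt1b* was picked. Leaving out a library, pseudocounts, filters, weights and the block therefore could not change either sign. Among settings that rescale the values, *Dynlt1b* had 0.45 with quantile normalization and 0.42 with the length trend removed. *Dynlt1a*, *Dynlt3*, *Dynll2* and *Dynlrb1* also kept a positive sign, down to 0.0099 for *Dynll2* without HT4 and 0.00099 for *Dynlt3* without WT1. The sign of the others changed. *Dynlt1c* ran from -0.14 (without WT3) to 0.11 (without HT4), *Dynlt1f* from -0.10 (without HT4) to 0.049 (without HT2), *Dynll1* from -0.072 (without HT4) to 0.038 (without WT2) and the 3 copies without *Dynlt1b* from -0.0095 (without WT3) to 0.060 (without HT2). By length, the mean share of *Dynlt1b* in the HT sum was 73.6% in place of 63.5%.

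The count of genes with a limma adjusted p under 0.05, 0 with all libraries, was 2 with sample weights, 1 with the length trend removed, 0 to 2 with 1 library left out (2 without HT4) and 2 with the length trend removed and HT4 left out, the last chosen after seeing the data. In the same 4 settings 1 neighbour of the *Dynlt1* cluster, *Arid1b*, passed (0 to 1 with 1 library left out). Its log2 fold changes there were -0.60 (adjusted p 6.87e-04), -0.66 (8.09e-06), -0.57 (2.47e-04) and -0.63 (4.08e-07), and with 1 library left out it ran from -0.73 to -0.57, with adjusted p from 4.08e-07 to 1.00 over all alternatives. The cause was not tested. Over all genes, unadjusted p under 0.05 were 1280 with sample weights, 1426 without HT4 and 1351 with the added alternative, against 580. They were 575 with quantile normalization and 720 with the length trend removed. Among neighbours of the *Dynlt1* cluster they were 5 with sample weights or without HT4, 4 with quantile normalization or the length trend removed and 6 with the added alternative, against 2. Among regulators and adaptors they were 4 with sample weights and 5 with the added alternative, against 1, and 0 with quantile normalization. With sample weights the kinesin median turned to 0.027 with 1 such gene. With the replicate number as a block, 0 genes passed, 558 had an unadjusted p under 0.05, the *Dynlt1b* log2 fold change was 0.45 ± 0.090 (SE) and the *Arid1b* adjusted p was 0.623. Of 5 HT libraries, 4 correlated best with the WT library of the same number, a hint from the data and not from the design.

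The lowest rough estimate of depth was 25023852 reads, in WT4, but the depth is not established. Of the *Dynlt1b* words, 86.9% are shared. Only 97 of 741 words, compared on the transcript strand, tell this gene from every other, so the split between copies is less certain than their sum.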
